A study of Mus musculus with 6 samples.

Results

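The genes of the core spliceosome encode the protein parts of the machine that removes introns from messenger RNA precursors. The set comprised 50 genes chosen by their place in the machine, of 42450 genes in the deposited table, and all 50 were found and passed the filter on low counts that left 18905 genes. They were divided by particle or stage, and the group of a particle includes proteins associated with it. The groups held 7 Sm, 4 U1, 13 U2, 3 U11/U12, 12 tri-snRNP and 11 catalytic stage genes. The rule used no measured value.

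The cells were mouse embryonic stem cells (ESC) of the male line E14tg2a.4, and total RNA was measured. The 3 WT libraries came from the parental line. The 3 Srrm2+/- libraries came from 1 gene-trap clone of that line, in which a cassette in exon 1 truncates 1 copy of Srrm2, the gene of a large spliceosome and nuclear speckle protein. Both lines grew on gelatin with LIF and were moved to serum-free medium with LIF before collection. The replicates of each line were batches frozen at different passages, and the WT batches were of later passages than the Srrm2+/- batches, so that clone, passage and genotype cannot be told apart. The p-values measure the spread between these batches.

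Splicing is carried out by small nuclear ribonucleoproteins (snRNPs), each a small nuclear RNA with its proteins. A ring of Sm proteins sits on most of these RNAs. U1 binds the start of the intron and U2 the branch site, while U11 and U12 do the same for the rare minor introns. The tri-snRNP of U4, U5 and U6 then joins, helicases exchange the RNA pairings, and proteins of the catalytic stage hold the active site and release the product. SRRM2 itself sits in activated and catalytic spliceosomes, and the comparison asks how the genes of its partners are expressed when 1 copy of Srrm2 is trapped.

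Library totals lay between 54151532 and 69933465 estimated counts. Srrm2, the targeted gene, measured 91.2, 98.3 and 97.7 CPM (estimated counts scaled to a common library size) in WT and 62.3, 56.2 and 59.6 CPM in Srrm2+/-. All Srrm2+/- libraries lay below all WT libraries, with a log2 fold change of -0.69 (SE 0.050, adjusted p = 2.38e-05). Stem cell identity genes also differed between the lines. Of 6 pluripotency markers, 5 were lower and Pou5f1 was not called, with summed levels of 3882 to 4090 CPM in WT and 3282 to 3406 CPM in Srrm2+/-. All 4 formative markers were higher (summed 133 to 154 CPM against 262 to 334 CPM). Of 5 fibroblast markers 3 were higher and the summed level was 3.36 to 3.63 CPM against 6.47 to 9.85 CPM. No primitive endoderm marker was called (summed 1.47 to 2.08 CPM over all libraries, with Sox17 too low to test). Of the trophectoderm markers Eomes was higher, Tfap2c lower and Cdx2 too low to test. Their summed level was 52.0 to 52.9 CPM in WT and 32.0 to 35.2 CPM in Srrm2+/-. Most of this sum was Tfap2c, at a mean of 50.6 CPM in WT and 30.8 CPM in Srrm2+/-. Of 8 proliferation genes Myc was higher, Pcna lower and 6 were not called (summed 3584 to 3714 CPM against 3467 to 3595 CPM). The share of counts on small nuclear RNA genes was 1.93%, 1.90% and 1.11% in WT and 0.881%, 1.26% and 0.855% in Srrm2+/-, so that WT replicates 1 and 2 stood apart and WT replicate 3 lay within the Srrm2+/- range. The share on small nucleolar RNA genes did not overlap, at 0.491% to 0.674% in WT and 0.316% to 0.380% in Srrm2+/-. The share on ribosomal RNA genes was 0.0396%, 0.0416% and 0.0132% in WT and 0.00703% to 0.0129% in Srrm2+/-. The part of these differences in the results on spliceosome genes was not tested. In such bulk libraries fewer cells of a type and less RNA per cell cannot be told apart.

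The core spliceosome genes stayed close to their WT levels in Srrm2+/- cells. A gene was called when its adjusted p, from edgeR's quasi-likelihood test with Benjamini-Hochberg adjustment over all genes tested, was under 0.05. Of the 50 genes, 10 were called (20%), 9 higher and 1 lower. The background was 25.3% of all genes tested and 33.0% of the 8398 genes with a mean of at least 10 CPM, a level that all 50 genes reached, so the share called was below both. Higher calls made up 18% of the set, against 13.6% of all genes and 15.4% of the genes with at least 10 CPM. Lower calls made up 2%, against 11.7% and 17.7%.

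The sizes were small. Log2 fold changes ran from -0.22 for Cdc5l to 0.43 for Prpf39, with a median of 0.077. The median was -0.0025 over all genes tested and -0.011 over genes with at least 10 CPM. Fold changes were above 0 for 37 of the genes and below 0 for 13. The median absolute change was 0.085 in the set and 0.11 in genes with at least 10 CPM. Only Prpf39 and Dhx38 of the 50 (4%) changed by at least 0.25 on the log2 scale, a size passed by 21.4% of genes with at least 10 CPM and 42.0% of all genes tested. The WT and Srrm2+/- libraries did not overlap for 19 of the 50 genes, where 49.6% of genes with at least 10 CPM did not overlap.

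**Figure D1:**
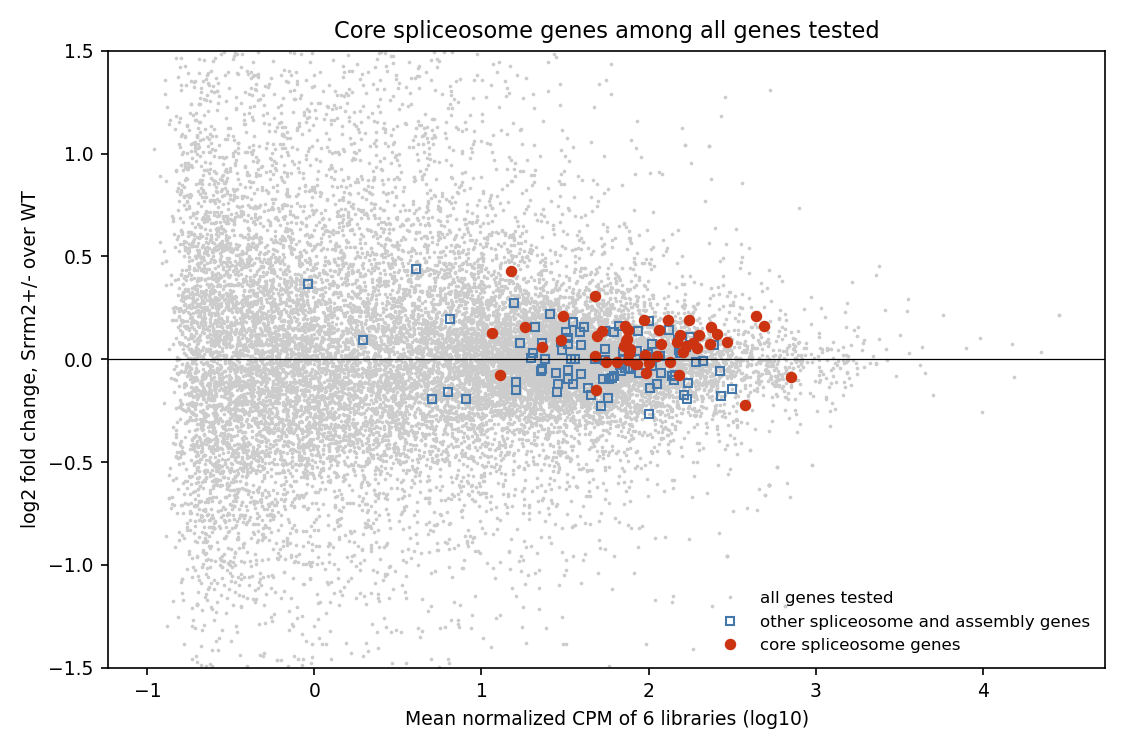
Each point is 1 gene, with its mean normalised CPM over the 6 libraries (log10) across and its log2 fold change of Srrm2+/- over WT upwards. Grey points are all genes tested (695 lie beyond the axis limit of 1.5), red circles the 50 core spliceosome genes and blue squares 93 other spliceosome and assembly genes. The core genes lie between -0.22 and 0.43, in the narrow band of well-expressed genes.

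Large changes lay outside the confidence intervals of most genes. Of the 40 genes not called, 30 had a 95% confidence interval that lay wholly within 0.25 of 0 on the log2 scale, that is between 15.9% lower and 18.9% higher. The intervals of the other 10 reached past that limit, with bounds between -0.26 and 0.44. These were Snrpd3, Snrpg, Sf3a1, Sf3a2, Sf3b3, Snrnp25, Snrnp35, Snrnp48, Prpf3 and Dhx8. Replicates were close: the median coefficient of variation between libraries was 3.53% in WT and 3.46% in Srrm2+/-.

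**Figure D2:**
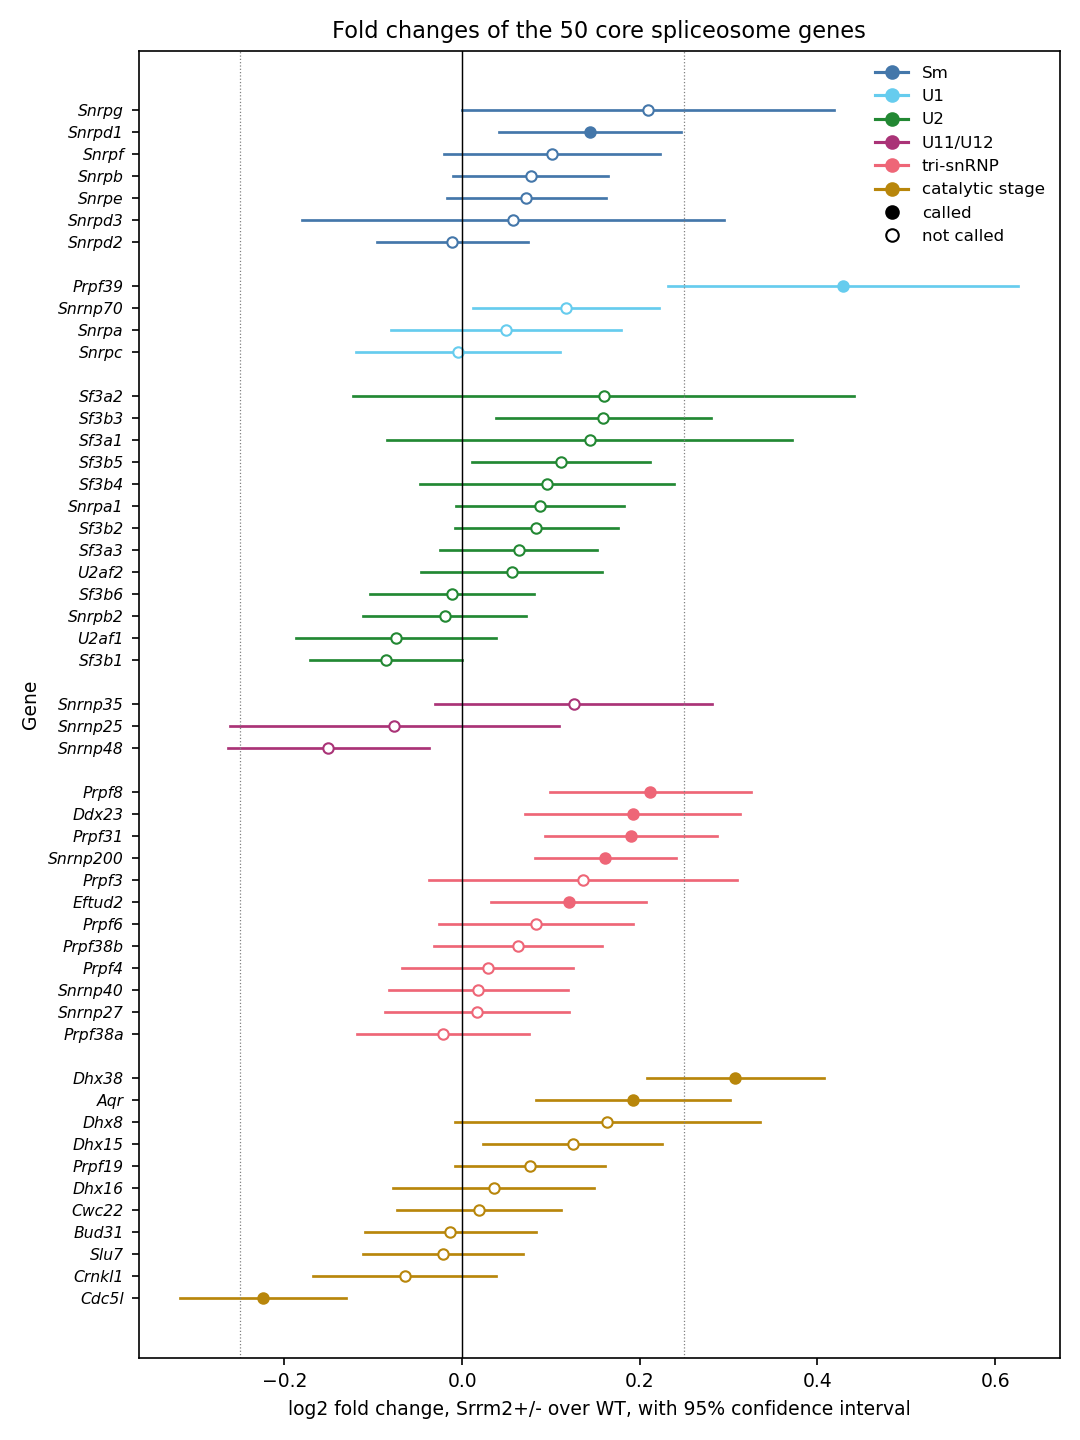
Log2 fold changes of Srrm2+/- over WT for the 50 genes, grouped by particle or stage, with 95% confidence intervals as bars. Filled points are the 10 called genes, open points the 40 that were not, and dotted lines mark 0.25 on either side of 0. Cdc5l is the single filled point left of 0, and 5 of the 12 tri-snRNP genes are filled.

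The tri-snRNP genes held 5 of the 10 calls. Chromosome positions are given on GRCm38, and exon numbers for the transcript with the longest coding sequence. The 5 made up 41.7% of 12 genes, beside 25.3% called in either direction of all genes tested and 33.0% of those with at least 10 CPM. All 5 were higher, where higher calls made up 13.6% and 15.4% of these backgrounds. The other 7 were not called, and the median log2 fold change of the 12 genes was 0.10. Their summed level was 1813 ± 23.4 CPM (SD, n = 3) in WT against 1993 ± 48.1 CPM in Srrm2+/-. The summed levels of the Sm genes also did not overlap, at 651 to 680 CPM in WT and 693 to 709 CPM in Srrm2+/-, while those of the U11/U12 genes were lower, at 73.9 to 75.7 CPM and 68.4 to 71.7 CPM. Prpf8, Snrnp200 and Eftud2 form the heart of the U5 particle. Prpf8 (chr11:75486816-75509449, plus strand, 42 exons), the large scaffold of the active site, measured 384, 422 and 412 CPM in WT and 458, 459 and 493 CPM in Srrm2+/-. The groups did not overlap, and the level was 15.8% higher (log2 fold change 0.21, SE 0.050, adjusted p = 0.0136). Snrnp200 (chr2:127208386-127240451, plus strand, 45 exons), the helicase that unwinds U4 from U6, measured 460, 471 and 467 CPM in WT and 520, 518 and 525 CPM in Srrm2+/-. It had the smallest SE of the called genes, and the gap between the groups was far wider than the spread within either (log2 fold change 0.16, SE 0.035, adjusted p = 0.00935). Eftud2, the GTPase that governs the tri-snRNP, measured 146, 148 and 148 CPM in WT and 162, 154 and 165 CPM in Srrm2+/-. Its call was at the threshold (0.12, SE 0.038, adjusted p = 0.0497). Snrnp40, the fourth U5 protein of the set, was not called: its 118, 106 and 112 CPM in WT overlapped the 112, 113 and 115 CPM in Srrm2+/- (0.018, 95% interval -0.082 to 0.12, adjusted p = 0.813).

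The other calls in this group were Prpf31 and Ddx23. Prpf31 (chr7:3629985-3642486, plus strand, 14 exons) holds the U4 particle in the tri-snRNP and is known as a retinitis pigmentosa gene in humans. Its levels of 123, 124 and 119 CPM in WT all lay below the 134, 138 and 146 CPM in Srrm2+/- (0.19, SE 0.043, adjusted p = 0.0112). Of the words of 31 bases in its transcripts, 16.9% also occur in Gm15927, which had 94 to 145 estimated counts per library. Ddx23 is the helicase that lets U6 take the place of U1 at the start of the intron. It measured 87.7, 88.2 and 86.0 CPM in WT and 95.1, 96.1 and 108 CPM in Srrm2+/-, with replicate 3 the highest (0.19, SE 0.053, adjusted p = 0.0283). The U4/U6 proteins Prpf3 and Prpf4, the bridging protein Prpf6, and Prpf38a, Prpf38b and Snrnp27 were not called, with log2 fold changes between -0.021 and 0.14. Without any 1 of the 3 WT libraries or without Srrm2+/- replicate 3, the calls in this group fell from 5 to 3, since Ddx23 and Eftud2 lost theirs each time. Calls over all genes also fell in these fits, from 4781 to between 3515 and 4122.

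The catalytic stage held 2 higher calls and the 1 lower call among 11 genes, with a median of 0.035. The share called was 27.3%, between the 25.3% of all genes tested and the 33.0% of those with at least 10 CPM. Dhx38 (chr8:109548011-109565861, minus strand, 27 exons), the helicase that remodels the spliceosome between the chemical steps, had the smallest adjusted p of the set. It measured 43.3, 43.2 and 41.1 CPM in WT and 51.0, 53.2 and 53.7 CPM in Srrm2+/-, which was 23.8% higher (0.31, SE 0.044, adjusted p = 0.00107). Aqr, the intron-binding helicase, measured 162, 164 and 164 CPM in WT and 176, 184 and 199 CPM in Srrm2+/- (0.19, SE 0.048, adjusted p = 0.0180). The WT libraries were nearly level and the Srrm2+/- libraries spread, and without Srrm2+/- replicate 3 the adjusted p was 0.0524.

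Cdc5l was the only gene of the 50 called lower. The gene (chr17:45391884-45433737, minus strand, 16 exons) encodes a central scaffold of the PRP19 complex, which joins the spliceosome as it is activated. Its levels were 393, 410 and 421 CPM in WT and 341, 352 and 355 CPM in Srrm2+/-. The groups stood apart, and the level fell by 0.22 on the log2 scale (SE 0.041, adjusted p = 0.00410). Of the words of 31 bases in its transcripts, 47.5% also occur in other annotated genes, chiefly the copies Gm9029 and Gm9030 and their relatives. The deposited table lists none of these copies, so their part in the call could not be tested. Its partner Prpf19, the ubiquitin ligase after which the complex is named, was not called (0.077, 95% interval -0.0076 to 0.16). Crnkl1, Bud31, Slu7, Cwc22, Dhx16 and Dhx8 were not called either, and ranged from -0.065 to 0.16.

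Dhx15, the helicase that takes the spent spliceosome apart, measured 247, 233 and 258 CPM in WT and 270, 269 and 265 CPM in Srrm2+/-. The groups did not overlap, but the difference missed the threshold (0.12, SE 0.044, adjusted p = 0.0723). A total of 5 genes encode ATPases of the DEAD and DEAH families, named for 4 residues of the site that binds ATP. Both the called Ddx23 and Dhx38 and the uncalled Dhx15, Dhx16 and Dhx8 have it. The coding sequence around that site is shown for all 5, to set the only DEAD-box gene beside the 4 DEAH-box genes, with the 12 bases that code for the 4 residues in capitals (GENCODE release M21 transcripts).
Ddx23: gtggttctgGATGAGGCGGATaggatgatt
Dhx38: gtcatcatgGATGAGGCCCACgagcgctcc
Dhx15: ataattcttGATGAGGCCCATgaaagaaca
Dhx16: gtgatggtgGATGAAGCTCACgagcggacc
Dhx8: attatgttgGATGAAGCACACgagaggacc

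**Figure D3:**
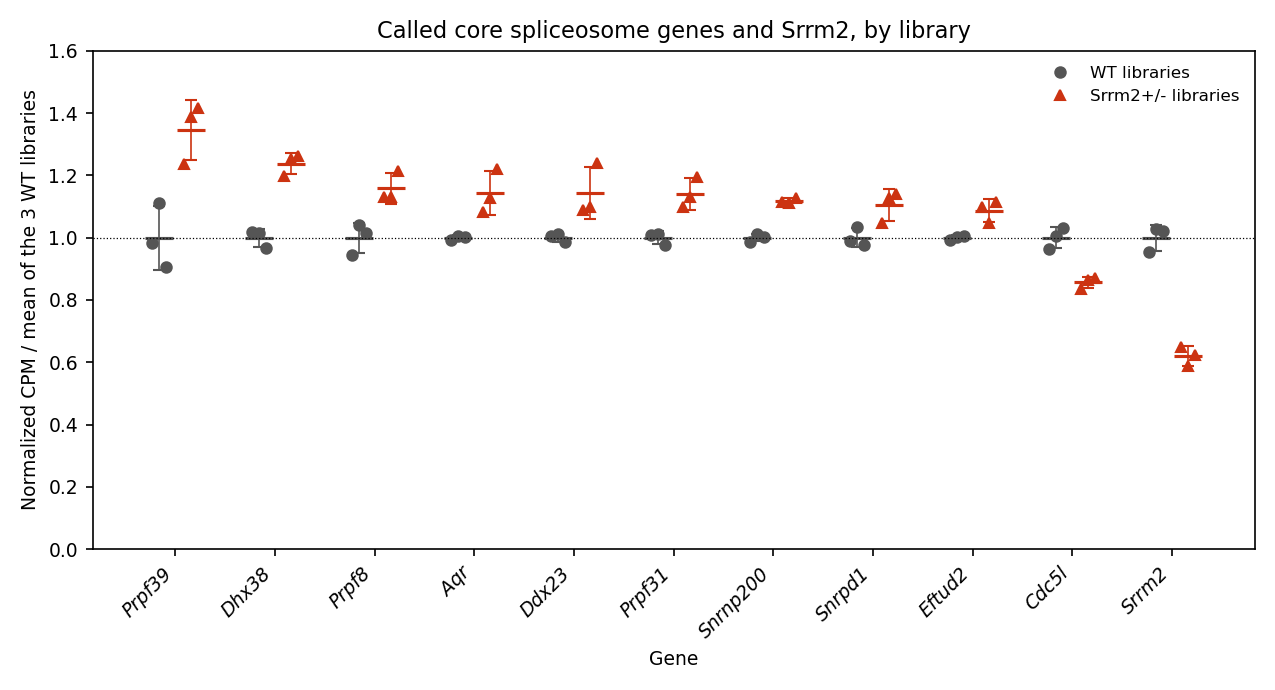
Normalised CPM of the 10 called genes and of Srrm2 in each library, divided by the mean of the 3 WT libraries of that gene. Circles are WT and triangles Srrm2+/- libraries, and horizontal lines and bars give the mean and SD of 3. All 9 higher genes have every triangle above every circle, while Cdc5l and Srrm2 have every triangle below.

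Among the U1 genes 1 of 4 was called (25%, beside 25.3% of all genes tested and 33.0% of those with at least 10 CPM). Prpf39 (chr12:65036333-65063386, plus strand, 14 exons), a U1-associated protein that takes part in alternative splicing, showed the largest change of the set. It measured 12.6, 14.2 and 11.6 CPM in WT and 15.8, 17.7 and 18.1 CPM in Srrm2+/-. It was 34.6% higher (95% interval 17.4% to 54.3%, log2 fold change 0.43, SE 0.087, adjusted p = 0.00686). The proteins that make up the U1 particle itself were not called. Snrnp70, which binds the U1 RNA, measured 190, 199 and 191 CPM in WT and 198, 213 and 219 CPM in Srrm2+/-, where replicate 1 fell within the WT range (0.12, SE 0.046, adjusted p = 0.100). Snrpc, which steadies the pairing of U1 with the intron, was level at 71.7, 76.8 and 78.7 CPM against 76.3, 71.7 and 78.5 CPM (-0.0043, 95% interval -0.12 to 0.11, adjusted p = 0.964). Snrpa, the other U1 RNA-binding protein, had a log2 fold change of 0.050.

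None of the 13 U2 genes was called by edgeR, beside 25.3% of all genes tested and 33.0% of those with at least 10 CPM. An unadjusted edgeR p under 0.05 was found for 3 of them, while DESeq2 called 1 and limma voom 0. Their median log2 fold change was 0.084 and the range -0.086 to 0.16. Sf3b1, which clamps the branch site and is the most abundant of the 50 by CPM, measured 730, 728 and 735 CPM in WT and 666, 701 and 699 CPM in Srrm2+/-. The Srrm2+/- libraries were all lower, by 5.78%, and the difference was not called (-0.086, SE 0.038, adjusted p = 0.136). U2af1, which reads the end of the intron, measured 159, 161 and 148 CPM in WT and 141, 156 and 147 CPM in Srrm2+/- with overlap (-0.074, SE 0.049, adjusted p = 0.324). Sf3b3, singled out after its values were seen, was the gene DESeq2 called. It measured 220, 222 and 226 CPM against 233, 244 and 268 CPM (0.16, SE 0.053, adjusted p = 0.0589 with edgeR). Srrm2+/- replicate 1 stood above the other 2 for Sf3a1 (91.0 against 67.0 and 78.8 CPM) and Sf3a2 (23.3 against 16.5 and 18.1 CPM), and their intervals were wide. Of the words of Sf3a2, 15.2% are shared with its neighbour Plekhj1, whose own log2 fold change was 0.48.

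The 7 Sm genes, whose products form the ring on the small nuclear RNAs, held 1 call and a median of 0.077. The share called was 14.3%, beside 25.3% of all genes tested and 33.0% of those with at least 10 CPM. Snrpd1 measured 109, 114 and 108 CPM in WT and 115, 124 and 126 CPM in Srrm2+/- (0.14, SE 0.045, adjusted p = 0.0464). The lowest Srrm2+/- library exceeded the highest WT library by little, and the call was lost without any 1 of the libraries other than Srrm2+/- replicate 1. The 2 highest Sm genes per transcript length were not called. Snrpe measured 120, 115 and 114 CPM in WT and 126, 121 and 120 CPM in Srrm2+/- (0.072, SE 0.039, adjusted p = 0.227). Snrpb measured 179, 180 and 180 CPM in WT and 194, 192 and 182 CPM in Srrm2+/-, all above WT (0.077, SE 0.038, adjusted p = 0.186). Snrpd2, Snrpd3, Snrpf and Snrpg ranged from -0.011 to 0.21. Snrpf shares 92.1% of its words with other genes, with 61.7% in Ccdc38, 23.1% in Gm13092 and 16.6% in 4933408J17Rik. The processed pseudogene Gm13092 was given 1612 to 2205 estimated counts per library, and the log2 fold change of Snrpf moved from 0.10 to 0.011 when the counts of both were summed.

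None of the 3 U11/U12 genes was called by edgeR (1 at an unadjusted p under 0.05, and 0 by DESeq2 and by limma voom). With 3 genes this says little beside the 25.3% called of all genes tested and 33.0% of those with at least 10 CPM. Snrnp48, a minor-spliceosome protein that meets the start of the intron, came closest. It measured 52.0, 50.7 and 49.6 CPM in WT and 46.5, 43.0 and 47.7 CPM in Srrm2+/-, with all Srrm2+/- libraries lower (-0.15, SE 0.050, adjusted p = 0.0554). It was called lower when protein coding genes alone were fitted and with a filter of at least 1 CPM. Snrnp25 overlapped between the groups at 12.1, 13.8 and 13.8 CPM against 12.1, 13.6 and 11.9 CPM (-0.076, SE 0.082, adjusted p = 0.555). Snrnp35 was at 0.13, with an interval of -0.030 to 0.28.

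Levels spanned a wide range within the machine. Per length, as CPM per kb of the transcript with the longest coding sequence, the lowest gene was Prpf39 at 3.14 ± 0.322 and the highest Snrpe at 231 ± 6.54 in WT (SD, n = 3), a ratio of 73.6. Next came Snrpb at 155 ± 0.709, U2af1 at 149 ± 6.60, Cdc5l at 135 ± 4.65 and Snrpd1 at 128 ± 3.86. The ranges of mean ± SD overlapped for Snrpb and U2af1 and for Cdc5l and Snrpd1. The lowest Sm gene was Snrpd3 at 7.47 ± 1.05, and the U5 proteins Prpf8, Snrnp200, Eftud2 and Snrnp40 lay within 1.59-fold. The choice of length, here varied after the values were seen, changed part of this order. Per kb of coding sequence Snrpe and Prpf39 were again the highest and lowest of the 50, at 421 and 6.41 CPM per kb, and the highest Sm gene, Snrpe, exceeded the lowest, Snrpd3, 7.03-fold, a smaller ratio than per kb of transcript. The second Sm gene became Snrpd2 in place of Snrpb, the second tri-snRNP gene Prpf38a in place of Snrnp200, and the second catalytic stage gene Prpf19 in place of Dhx15, while the lowest tri-snRNP gene became Prpf3 in place of Prpf4. The U5 proteins then lay within 2.06-fold. Sf3b5, with a coding sequence of 258 bases in a transcript of 3841, moved from the lowest SF3b gene at 12.3 CPM per kb to 184 CPM per kb, next to Sf3b1 at 187. Per kb of transcript the U11/U12 genes were at 28.4 ± 0.663 CPM per kb for Snrnp48, 16.1 ± 1.25 for Snrnp25 and 9.38 ± 0.533 for Snrnp35.

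**Figure D4:**
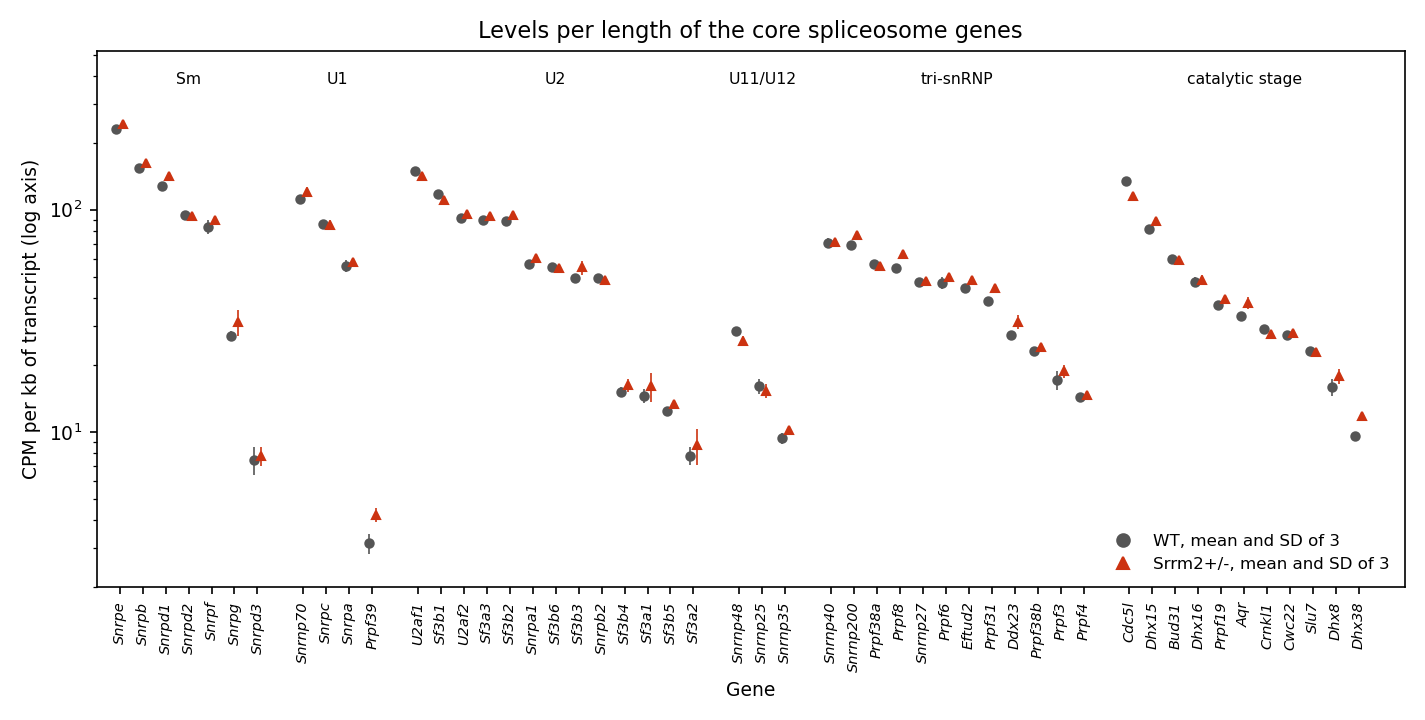
Level of each gene as CPM per kb of transcript on a log axis, in order of WT level within each group. Circles and triangles are the means of 3 WT and 3 Srrm2+/- libraries, with SD bars. Snrpe at 231 in WT is the highest and Prpf39 at 3.14 the lowest, and the gaps between genes are far wider than those between the lines.

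The genes called higher were long by their median. Their coding sequences had a median of 2916 bases, against 1173 bases in the 40 genes not called. Cdc5l, the gene called lower, had 2406 bases. Long genes were also found among those not called, such as Sf3b1 (3912 bases), Dhx8 (3732 bases) and Sf3b3 (3651 bases). In 8016 protein coding genes with at least 10 CPM the medians were 1440 bases for higher, 1512 for lower and 1368 for uncalled genes. Snrpd1 (357 bases) and Prpf31 (1497 bases) were the shortest of the 9, and Prpf8 (7005 bases) and Snrnp200 (6408 bases) the longest of the whole set. Across the 50 genes the log2 fold change and coding length had a Spearman rho of 0.31, and across the 8016 genes -0.028. The same libraries gave all points and genes are not independent replicates. The G and C content of the transcripts had a rho of 0.19 with the log2 fold change in the set and 0.17 over the 8016 genes, with medians of 51.0% in the 9 higher genes and 49.4% in the genes not called.

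The start regions of the genes were read from RefSeq (build GRCm38.p6), which matched 40 of the 50 genes by symbol. In the 250 bases before the start, the ETS factor motif CCGGAAG occurred on either strand in 14 of 40 genes (35%), against 12.6% of 12289 promoters of tested genes and 7.05% of all 27025 promoters. The genes that held it came from every group but U11/U12, and of the 6 called genes with a matched window they were Aqr and Snrnp200. The SP1 letters GGGCGG occurred in 57.5% against 56.5% of promoters of tested genes, the NF-Y letters CCAAT in 37.5% against 36.2%, the TATA letters TATAAA in 7.5% against 6.95%, and the NRF1 letters GCATGCGC in 2.5% against 4.17%. The YY1 letters AAGATGG were in none of the 40 windows, against 4.19%. A match describes letters and not a bound site. The median G and C content of the windows was 56.4%, against 59.2% in promoters of tested genes.

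Shown are the windows of the 5 matched genes whose call held under every alternative fit, with matches to the ETS, NRF1, YY1 and NF-Y letters in capitals. Snrnp200 has the ETS letters 33 to 27 bases before the start. Prpf8 holds the NF-Y letters at 2 places, and Prpf31 and Cdc5l each at 1, while Prpf39 has none of them.
Snrnp200, chr2:127208136-127208385, + strand: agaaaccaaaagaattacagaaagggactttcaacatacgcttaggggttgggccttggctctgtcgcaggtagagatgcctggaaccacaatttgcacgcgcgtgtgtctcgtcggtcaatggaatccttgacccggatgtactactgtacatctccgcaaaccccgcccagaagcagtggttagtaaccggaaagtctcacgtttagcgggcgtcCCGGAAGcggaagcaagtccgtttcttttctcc
Prpf8, chr11:75486527-75486776, + strand: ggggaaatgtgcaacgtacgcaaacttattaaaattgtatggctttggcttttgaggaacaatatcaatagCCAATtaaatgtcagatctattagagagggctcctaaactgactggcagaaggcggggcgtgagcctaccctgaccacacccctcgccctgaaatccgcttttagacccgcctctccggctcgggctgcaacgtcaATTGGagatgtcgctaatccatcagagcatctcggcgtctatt
Prpf31, chr7:3629735-3629984, + strand: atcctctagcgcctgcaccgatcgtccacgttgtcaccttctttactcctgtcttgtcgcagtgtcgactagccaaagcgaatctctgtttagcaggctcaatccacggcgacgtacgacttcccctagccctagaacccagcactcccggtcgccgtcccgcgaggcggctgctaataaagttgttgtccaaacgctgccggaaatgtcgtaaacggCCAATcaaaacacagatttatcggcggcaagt
Prpf39, chr12:65036084-65036333, + strand: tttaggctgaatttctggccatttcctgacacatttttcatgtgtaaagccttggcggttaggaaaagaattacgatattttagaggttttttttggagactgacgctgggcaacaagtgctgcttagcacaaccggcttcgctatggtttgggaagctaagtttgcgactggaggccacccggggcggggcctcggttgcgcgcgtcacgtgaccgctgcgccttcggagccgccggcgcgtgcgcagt
Cdc5l, chr17:45433708-45433957, - strand: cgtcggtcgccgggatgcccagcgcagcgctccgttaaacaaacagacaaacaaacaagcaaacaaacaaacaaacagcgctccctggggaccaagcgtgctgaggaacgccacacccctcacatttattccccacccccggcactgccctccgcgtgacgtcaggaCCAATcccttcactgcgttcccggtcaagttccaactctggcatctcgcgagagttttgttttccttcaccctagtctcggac

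The pathway was widened by 93 further genes, listed by role. Of these 6 were higher and 9 lower (16.1% called, against 25.3% of all genes tested and 33.0% of those with at least 10 CPM), and their median log2 fold change was 0.00033. These counts turned on single libraries, while calls over all genes numbered 4781 with every library and 3515 to 4122 with 1 left out. The higher calls numbered 0 without Srrm2+/- replicate 3, 1 without Srrm2+/- replicate 2 and 3 without WT replicate 1 or 2, and the lower calls 3 without WT replicate 2, 4 without Srrm2+/- replicate 3 and 5 without Srrm2+/- replicate 2. Among 15 other tri-snRNP and B complex genes 3 were higher and 1 lower (26.7% called). Mfap1a, a B complex protein, measured 113, 112 and 105 CPM in WT and 88.5, 93.2 and 92.8 CPM in Srrm2+/- (-0.27, SE 0.044, adjusted p = 0.00232). Mfap1b, in the same list, was not called (-0.055, SE 0.050, adjusted p = 0.479). Shared words were measured for the core genes only. The division of reads between Mfap1a and Mfap1b was therefore not tested. Sart3, which brings U4 and U6 back together, was higher by 11.8% (adjusted p = 0.0325), and Rbm42 by 11.4% (adjusted p = 0.0187). Of 20 other U1 and U2 genes 0 were higher and 4 lower (20%). Lower calls made up 11.7% of all genes tested and 17.7% of those with at least 10 CPM, so this share was near the latter. The lower genes included the U1-associated Luc7l2 (-0.19, adjusted p = 0.0196) and Luc7l3 (-0.18, adjusted p = 0.0392) and the splicing regulator Rbm5 (-0.17, adjusted p = 0.00915). Prpf39 and these U1-associated genes thus lay on opposite sides of 0.

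Of 8 LSm genes, which form the ring of U6 and of a cytoplasmic decay complex, only Lsm5 was called (-0.22, adjusted p = 0.00733). Of 26 other catalytic stage and release genes only Isy1, a PRP19-related protein, was called (0.18, adjusted p = 0.0425). Of 8 other minor spliceosome genes 2 were lower, Zrsr2, which reads the end of minor introns (-0.19, adjusted p = 0.0179), and Rbm48 (-0.16, adjusted p = 0.0327). Among 16 genes of snRNP assembly and transport, Gemin5, which recognises the small nuclear RNAs for the SMN complex, was higher (0.19, adjusted p = 0.0164), as was the Sm chaperone Clns1a (0.14, adjusted p = 0.0266). Gemin2, the SMN partner that holds the Sm proteins, was lower (-0.17, adjusted p = 0.0199). The share called was 12.5% for LSm, 3.85% for catalytic stage and release, 25% for minor spliceosome and 18.8% for assembly and transport genes. The background was 25.3% of all genes tested and 33.0% of those with at least 10 CPM.

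Of the 10 called genes, 6 kept their call and direction under each of the 16 alternative fits. They were Prpf39, Snrnp200, Prpf8, Prpf31, Dhx38 and Cdc5l. The fit with counts summed with pseudogenes added none to these 6 genes, so it could not test shared sequence for them. Some held narrowly: the largest adjusted p over these fits was 0.0498 for Prpf8 and 0.0440 for Prpf31. It was 0.0328 for Snrnp200, 0.0322 for Prpf39, 0.0193 for Cdc5l and 0.0072 for Dhx38. Without Srrm2+/- replicate 3 the calls fell from 10 to 6, the 6 just named, and over all genes from 4781 to 3515. With a threshold of 0.01, 4 of the 50 were called (background 14.7% of all genes tested and 19.5% of those with at least 10 CPM). Prpf8 and Prpf31 were not among these 4. With a log2 fold change of at least 0.25 in addition to the threshold of 0.05, 2 were called (19.4% and 19.9%).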

How the data were processed

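Total RNA of 3 WT and 3 Srrm2+/- cultures was sequenced as stranded, paired-end libraries. Estimated counts per gene were deposited by the authors without normalisation, from kallisto 0.46.1 run on GENCODE release M24 transcripts (build mm10 per the labels). The strand setting was not given in the sources used here. Groups and replicate numbers came from the sample titles. Symbols, positions and transcripts came from GENCODE release M21, which matched 42156 of 42450 identifiers.

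Estimated counts were rounded, genes were kept by filterByExpr (minimum count 10, minimum total 15), and Srrm2+/- was tested against WT with edgeR 4.0.16 (TMM, glmQLFit and glmQLFTest, two-sided, genotype alone, Benjamini-Hochberg adjustment over 18905 genes). The standard error was the log2 fold change divided by the square root of F. CPM used TMM-scaled totals. kallisto divides reads among genes that share sequence, which was measured for the core genes as shared words of 31 bases.

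The genes, their groups, the further lists and the rule for named genes were chosen with earlier results of these data known. Values by library were given for called genes and the 2 highest genes per length of each group, and of each further list for at most 3 called genes. Alternatives were RLE, upper quartile and no scaling, protein coding genes only, DESeq2 1.42.0, limma voom 3.58.1, filters of at least 1 count or 1 CPM, a term for the replicate number, omission of each library, stricter call rules, and counts summed with pseudogenes. Replicates differed by more than sampling noise. The scripts were tested on simulated data. No spike-in rows were used.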

Additional observations from a re-analysis of the deposited data

How the results depend on the processing

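Direction and call held under all 16 alternative fits for Prpf39, Dhx38, Prpf8, Prpf31, Snrnp200 and Cdc5l, and Srrm2 stayed lower in each fit it entered. Summing with pseudogenes changed the counts of none of these core genes. The alternatives moved the median of all genes by at most 0.013 on the log2 scale. Aqr was lost in 1 fit, Ddx23 in 4, Snrpd1 in 7 and Eftud2 in 9, and 6 uncalled genes were called under at least 1 alternative. At an adjusted p under 0.01, 4 of the 50 genes were called, 3 higher and 1 lower, and over all genes 2779 (1574 higher, 1205 lower). With a log2 fold change of at least 0.25 in addition, 2 were higher and 0 lower. With protein coding genes only, 2 were lower, 1 of them of U11/U12. The filter of at least 1 CPM likewise gave 2 lower, with 1 U11/U12 and 1 U2 call, and DESeq2 and the filter of at least 1 count each gave 1 U2 call. With no scaling 0 Sm genes were called.

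Samples that shared a replicate number did not deviate together (correlations of -0.028, -0.033 and -0.030). With the replicate block 8 of the 50 genes were called, 0 of them Sm genes, 4166 genes over all, and of the further pathway genes 3 higher and 5 lower. Snrpd1 and Eftud2 lost their calls there.

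Leaving out 1 library gave 6 to 12 called genes (5 to 11 higher), with 0 to 2 of the Sm group, 1 to 2 of U1, 0 to 1 of U2 and 3 to 5 of the tri-snRNP. Over all genes these fits called 3515 (without Srrm2+/- replicate 3) to 4122 (without WT replicate 1), against 4781 with every library. For the further pathway genes it gave 0 to 4 higher and 3 to 8 lower. The sign of 14 uncalled genes near 0 changed in at least 1 fit. Snrpc, at -0.0043, was 8.8e-05 with upper quartile scaling, 0.0014 with the filter of at least 1 count and 0.0023 with that of at least 1 CPM. With 1 library left out, log2 fold changes ran from -0.027 to 0.0085 for Snrpd2, -0.045 to 0.16 for Snrpd3, -0.0018 to 0.088 for Snrpa, -0.042 to 0.034 for Snrpc, -0.043 to 0.0059 for Snrpb2, -0.035 to 0.013 for Sf3b6, -0.016 to 0.056 for Snrnp40, -0.0062 to 0.045 for Snrnp27, -0.00057 to 0.051 for Prpf4, -0.048 to 0.014 for Prpf38a, -0.031 to 0.017 for Bud31, -0.039 to 0.0081 for Slu7, -0.0083 to 0.045 for Cwc22 and -0.00063 to 0.080 for Dhx16. The cause was not tested, beyond the smaller number of samples in these fits.

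Each of the 50 genes had at least 559 estimated counts in every library. The parts of counting error and of replicate spread in the intervals were not separated.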
